A study of Mus musculus with 35 samples.

Results

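The 6 libraries described here are regulatory T cells (Tregs) taken at Zeitgeber time 0 (ZT0), the moment the lights come on, from visceral adipose tissue (VAT) and from spleen. They were chosen by their labelled time and tissue alone: 3 VAT and 3 spleen libraries, out of 35 in the whole series. The remaining 29 libraries, 14 from VAT and 15 from spleen, come from the 5 later times ZT4, ZT8, ZT12, ZT16 and ZT20. All 35 share genotype and strain: wild-type C57BL/6 males, retired breeders older than 35 weeks, housed with 12 h of light and 12 h of dark, with no treatment in the labels. Each library holds 1000 cells, sorted in 2 passes as CD4+ CD25+. The gate does not use the Treg factor FOXP3, so activated conventional T cells that carry CD25 could be among the cells. Replicates are named by the letters A, B and C of the labels, which do not tell whether each came from its own animal. P-values therefore reflect only how much these libraries vary, and that variation may be technical.

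Tregs restrain other immune cells, and those that live in visceral fat carry a program of their own, built on the receptor for IL-33, the nuclear receptor PPARγ and the growth factor amphiregulin. Spleen Tregs are in large part resting, recirculating cells that keep lymph node homing receptors. Most cells also run a circadian clock, in which BMAL1 (gene Arntl) and CLOCK drive the Per, Cry and Nr1d genes, whose proteins feed back on them. Immediate early genes such as Fos, Egr1 and Dusp1 are switched on within minutes by many stimuli.

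The comparison of the tissues at ZT0 asks which genes differ between fat and spleen Tregs when the light phase starts. The comparison of that difference with the other times asks whether the tissues are set apart to another degree at this hour. The ZT0 libraries held 2841609 to 4578927 counts. Levels are CPM, counts scaled to a common library total and then for library composition, values after ± are SD for a level and SE for a log2 difference, and n is 3 per tissue at ZT0. Adjusted p-values are from edgeR's quasi-likelihood test with Benjamini-Hochberg adjustment over the 15910 genes that passed a filter on low counts, and a gene is called when the adjusted p is under 0.05. In bulk samples, fewer cells of a type and less RNA per cell cannot be told apart.

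Markers of T cells and Tregs matched the labels. The 7 such genes summed to 6070 to 6420 CPM in the VAT libraries and 3130 to 3380 CPM in the spleen libraries. The largest part of the difference was Ctla4, which averaged 2340 CPM in VAT and 344 CPM in spleen. Cd3e was lower in VAT, at 159, 191 and 153 CPM against 358, 303 and 321 CPM in spleen. Cd3g and Cd4 were not called, and Foxp3, Il2ra and Ikzf2 were called higher in VAT. Of 12 marker lists of other cell types, the summed level at ZT0 was higher in every VAT library than in any spleen library for 6, lower for 4 (B cells, macrophages or monocytes, endothelial and erythroid cells), and overlapping for CD8 T cells and adipocytes. For 5 markers of conventional CD4 T cells the sum was 40.4 to 81.9 CPM in VAT and 25.8 to 36.7 CPM in spleen, most of it Cd40lg. Il21 went the other way, at 0 in VAT and at 1.38 to 3.72 CPM in spleen. The remaining members were at 4.92 CPM or less in every library. For 8 B cell markers the sum was 161 to 192 CPM in VAT and 1490 to 1920 CPM in spleen, most of it Ighm, while Ms4a1 was at 1.25 CPM or less in every library. For 6 neutrophil markers it was 367 to 759 CPM in VAT and 9.55 to 20.2 CPM in spleen, nearly all of it Mmp9, with S100a9 at 0 and S100a8, Ly6g and Retnlg at or near 0. For 8 macrophage or monocyte markers the sum was 14.2 to 23.2 CPM in VAT and 56.5 to 72.2 CPM in spleen. Stromal or mesothelial markers summed to 180 to 201 CPM in VAT and 18 to 40.6 CPM in spleen, nearly all of it Gsn and Lrrn4 in VAT, with Col1a1, Col1a2, Col3a1 and Dcn at 2.62 CPM or less. Endothelial markers summed to 30.5 to 39.2 CPM in VAT and 221 to 303 CPM in spleen, nearly all of it Pecam1. Plasma cell markers summed to 293 to 311 CPM in VAT and 116 to 193 CPM in spleen, most of it Xbp1, with Jchain and Mzb1 at 0 in VAT. Dendritic cell markers and those of NK cells or ILCs were at most 41 and 46.2 CPM in VAT and lower in spleen. VAT libraries A and B stood apart in a technical measure, the slope of log2 CPM on log2 transcript length, at -0.073 and -0.041. VAT library C was at 0.131, near the spleen libraries at 0.105 to 0.115. This measure thus differed in part along with tissue.

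Promoter sequences are shown for 4 genes on which the results turn: Dusp1, the only gene whose tissue difference at ZT0 passed the test against that at another single time, Nr4a3 and Fos, 2 immediate early genes far higher in VAT, and Per1, a clock gene far higher in VAT. Each is the 250 bases before the RefSeq start of transcription in GRCm38.p6, read along the gene's strand. Capitals mark the cAMP response element TGACGTCA, its 6-base form TGACGT, which lies within it, and the E-box CACGTG bound by BMAL1 and CLOCK. The Dusp1 sequence is chr17:26508473-26508722 on the minus strand, that of Nr4a3 chr4:48045055-48045304, that of Fos chr12:85473640-85473889 and that of Per1 chr11:69098699-69098948, all 3 on the plus strand. The table holds a second Per1 start, whose window at chr11:69099902-69100151 has 1 copy of the 6-base form and no E-box and is not printed.
Dusp1: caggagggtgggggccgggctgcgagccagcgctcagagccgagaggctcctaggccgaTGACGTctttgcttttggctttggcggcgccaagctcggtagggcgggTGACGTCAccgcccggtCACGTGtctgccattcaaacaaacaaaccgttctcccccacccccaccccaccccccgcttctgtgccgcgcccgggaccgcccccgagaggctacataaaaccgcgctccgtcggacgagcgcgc
Nr4a3: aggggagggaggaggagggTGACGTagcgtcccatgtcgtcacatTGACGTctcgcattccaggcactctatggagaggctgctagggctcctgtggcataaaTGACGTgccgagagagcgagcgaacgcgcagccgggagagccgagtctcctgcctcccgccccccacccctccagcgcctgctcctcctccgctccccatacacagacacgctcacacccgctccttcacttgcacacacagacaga
Fos: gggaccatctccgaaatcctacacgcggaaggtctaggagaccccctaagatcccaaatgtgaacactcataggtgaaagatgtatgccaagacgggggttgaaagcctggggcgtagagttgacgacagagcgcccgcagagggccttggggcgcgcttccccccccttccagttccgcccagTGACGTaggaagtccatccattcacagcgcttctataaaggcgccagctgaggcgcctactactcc
Per1: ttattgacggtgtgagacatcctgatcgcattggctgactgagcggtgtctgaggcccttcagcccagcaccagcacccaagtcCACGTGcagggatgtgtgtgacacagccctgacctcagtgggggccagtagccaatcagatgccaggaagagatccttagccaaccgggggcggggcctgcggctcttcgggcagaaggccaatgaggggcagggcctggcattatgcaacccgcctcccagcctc
The Dusp1 promoter holds 1 full cAMP response element, 3 copies of the 6-base form and 1 E-box, and that of Nr4a3 holds 3 of the 6-base form. The full element reads the same on both strands, so 2 of the 3 copies in Dusp1 lie inside it, 1 on each strand. The 6-base form, searched on both strands, was in 6 of 21 immediate early genes with a promoter in the table (28.6%), and in 2 of 17 core clock genes (11.8%), Hlf and, through its second start, Per1, against 11.3% of 10612 tested genes. The E-box was in 5 of the 17 clock genes (29.4%), Bhlhe41, Ciart, Cry1, Per1 and Tef, against 9.65% of the tested genes. It was also in 5 of the 21 immediate early genes (23.8%), Dusp1, Dusp2, Egr2, Klf4 and Klf6. A gene with more than 1 start was counted when any of its windows matched. A match of letters is a description of the window, not a measured binding site.

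At ZT0, 4824 genes differed between VAT and spleen Tregs, 30.3% of the 15910 tested. Of these, 2611 were higher in VAT (16.4% of tested genes) and 2213 lower (13.9%). The difference was at least 2-fold for 1753 of the higher and 1427 of the lower genes. Among all tested genes, the libraries did not overlap between tissues for 3504 with VAT higher and 3522 with VAT lower. With library totals in place of composition scaling, the split turned to 1772 higher and 4158 lower, and the median log2 difference of all genes moved from -0.05 to -0.39. The single later times gave 3806 (ZT20, with 2 VAT libraries) to 4883 (ZT16) called genes, so the number at ZT0 was within the range of the other hours.

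The 10 genes highest in VAT, among called genes of at least 10 CPM whose libraries did not overlap between tissues, were Cxcl2, Atf3, Ccr1, Cxcl1, Calca, Areg, Ablim3, Adgrg3, Pcsk1 and Mmp25. They include chemokines that attract neutrophils (Cxcl2, Cxcl1), a chemokine receptor (Ccr1), a stress transcription factor (Atf3), an epithelial growth factor (Areg) and a prohormone convertase (Pcsk1). Cxcl2 (chromosome 5, 90903871 to 90905938) stood at 822, 899.7 and 908 CPM in VAT libraries A, B and C. The spleen libraries together held 1 count of it, against 9336 in VAT, a ratio of 10300 with a 95% counting interval of 1840 to 406000 (adjusted p = 3.29e-19). Areg, which encodes amphiregulin (chromosome 5, 91139599 to 91148432), stood at 2581, 2047 and 2238 CPM in VAT and at 0.93, 0.716 and 2.53 CPM in spleen, a log2 difference of 10.60 ± 0.71 (adjusted p = 1.24e-11). Every VAT library exceeded every spleen library by a wide margin in both genes.

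Atf3 was uneven within VAT, at 1667 CPM in library A and 628 and 677 CPM in B and C, against 3 counts in all of the spleen libraries (ratio 4050, interval 1390 to 19600). Ccr1 stood at 592, 701 and 416 CPM in VAT, with 2 counts in spleen (ratio 3350, interval 926 to 27600). Pcsk1 was at 428, 508 and 789 CPM in VAT and at 1.55, 0.477 and 0 CPM in spleen. Cxcl1, Calca, Ablim3 and Adgrg3 had no count in any spleen library at ZT0. Measured against a floor of 3 counts over the 3 spleen libraries, they were at least 357-fold, 220-fold, 171-fold and 123-fold higher in VAT. Calca, the precursor gene of calcitonin and CGRP, varied most of these 10 within VAT (SD over mean), with 101, 48.0 and 19.2 CPM. Mmp25, Ccr1 and Adgrg3 are genes that neutrophils also express. The neutrophil marker sum was higher in VAT in the same libraries, and its part in these differences was not tested. Its members S100a8, S100a9, Ly6g and Retnlg were at 0.749 CPM or less in all 6 libraries.

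The 10 genes lowest in VAT were Tlr7, Lad1, Spsb1, Bank1, Pgpep1l, Ighd, Aff3, Gbp2b, Dtx1 and Apol7e. The first 6 had no count in any VAT library at ZT0. Tlr7, a sensor of single-stranded RNA (chromosome X, 167304929 to 167330558), stood at 20.8, 34.1 and 28.3 CPM in spleen and was at least 98.8-fold higher there. Lad1, Spsb1, Bank1, Pgpep1l and Ighd were at least 92.2-fold, 48.7-fold, 46.3-fold, 44.2-fold and 43-fold higher in spleen. Dtx1, the ubiquitin ligase Deltex-1 of the Notch pathway (chromosome 5, 120680202 to 120711927), stood at 63.6, 51.6 and 71.7 CPM in spleen and at 0.25, 0.923 and 0 CPM in VAT, a log2 difference of -7.25 ± 0.50 (adjusted p = 2.79e-14). Aff3 was even across the spleen libraries, at 43.7, 44.4 and 43.4 CPM, and had 1 count in VAT (ratio 469, interval 83.8 to 18600). Bank1, Ighd, Tlr7 and Aff3 are also expressed by B cells, and the B cell marker sum, which includes Ighd, was higher in spleen in the same libraries. Its part in these differences was not tested. Gbp2b belongs to a family of near-identical genes, so its counts are uncertain.

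Immediate early genes had the highest median difference of the 25 gene lists after the VAT Treg signature. Of 25 genes, 22 were higher in VAT at ZT0, 1 was lower (Egr2) and 2 did not pass (Klf2 and Myc). Their median log2 difference was 3.94, against -0.05 for all genes. Fos, a subunit of the AP-1 transcription factor, stood at 4648, 5970 and 4723 CPM in VAT and at 4.96, 14.3 and 6.2 CPM in spleen, a log2 difference of 9.20 ± 0.63 (adjusted p = 1.79e-11). Nr4a3, an orphan nuclear receptor named here after its values were seen because its promoter is printed, averaged 330.3 ± 29.1 CPM in VAT and 3.54 ± 1.03 CPM in spleen (log2 difference 6.55 ± 0.27, adjusted p = 4.53e-21). Egr2, a zinc finger factor tied to T cell restraint, went the other way, with 15.2, 3.39 and 13.7 CPM in VAT below 40, 47.5 and 25.5 CPM in spleen (-1.79 ± 0.41, adjusted p = 0.000793). Myc did not pass, at 112.5 ± 8.96 CPM in VAT against 111 ± 1.76 CPM in spleen (0.02 ± 0.16, adjusted p = 0.948). At the 5 other times 20 to 22 of the 25 were higher in VAT, with medians of 3.81 to 4.51, so the shift was present at every hour sampled.

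**Figure D1:**
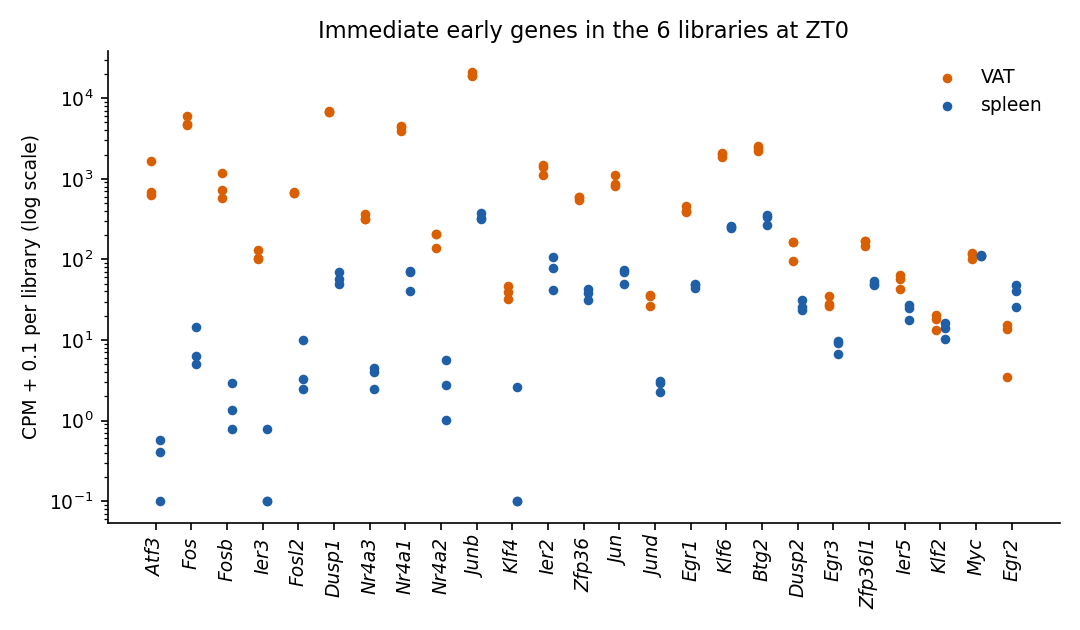
Levels of the 25 immediate early genes in each ZT0 library, as CPM plus 0.1 on a log axis, with VAT in orange and spleen in blue, ordered by the fitted log2 difference. A library without a count sits at 0.1 and equal points overlap; the tissues separate for most genes, Myc lies together and Egr2 is higher in spleen.

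Of 16 Treg core genes, 9 were higher in VAT at ZT0, 6 were lower and 1 did not pass. Il10, a suppressive cytokine, was at 617, 935 and 398 CPM in VAT and at 2.48, 4.3 and 0.459 CPM in spleen (8.07 ± 0.64, adjusted p = 2.97e-10). Ctla4, an inhibitory receptor of Tregs, was at 2299, 2646 and 2082 CPM in VAT and at 329, 385 and 319 CPM in spleen (2.77 ± 0.14, adjusted p = 2.1e-18). Lrrc32, which encodes the TGF-β docking protein GARP, was lower, with 7.99, 17.9 and 10.2 CPM in VAT against 249.6, 205 and 277 CPM in spleen (-4.36 ± 0.52). Gpr83, a receptor of resting Tregs, was also lower (-3.88 ± 0.78, adjusted p = 0.000426). Foxp3 itself, chosen for naming as the lineage factor, was modestly higher, at 755 ± 11.5 CPM in VAT against 536 ± 23.7 CPM in spleen (0.50 ± 0.12, adjusted p = 0.00107).

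The VAT Treg signature and the resting set moved in opposite directions. Of 24 signature genes, 21 were higher in VAT (median 4.43), and of 15 genes of resting or lymphoid Tregs, 13 were lower (median -4.09). Both lists hold genes known to separate these tissues, so their direction is not independent evidence. Itgae, the CD103 integrin chain, was the signature gene that was lower, with 21, 20.3 and 25 CPM in VAT and 139.8, 187 and 132 CPM in spleen (-2.79 ± 0.44, adjusted p = 1.51e-05). Batf, an AP-1 family factor of tissue Tregs, showed the smallest called rise (0.65 ± 0.18, adjusted p = 0.00496), and that call was lost with library totals. Dpp4, a surface peptidase, was at 1.75, 3.69 and 3.78 CPM in VAT and at 150.4, 175 and 138.2 CPM in spleen, with no overlap (-5.67 ± 0.48, adjusted p = 2.37e-10). Ly6c1 was the resting gene that was higher in VAT (0.68 ± 0.22, adjusted p = 0.0167), a call lost with library totals, with the length slope as a covariate and without VAT library A, spleen library A or spleen library B.

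Activation and effector genes were mostly higher, 14 of 18, with 2 lower. Nfkbid, a nuclear NF-κB cofactor, was at 2149, 1890 and 1742 CPM in VAT and at 65.1, 57.8 and 52.4 CPM in spleen (5.05 ± 0.22, adjusted p = 8.22e-19). Tnfaip3, the NF-κB brake A20, was at 3486, 4654 and 10990 CPM in VAT and at 114, 98.4 and 129 CPM in spleen (5.81 ± 0.58). Its high value lies in VAT library C, whose length slope differed from those of VAT libraries A and B. The part of the slope in that value was not tested. The 2 lower genes were the checkpoint receptor Lag3 (-3.07 ± 0.66) and the surface molecule Cd83 (-2.60 ± 0.45, adjusted p = 7.38e-05).

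Among 24 trafficking receptors, 12 were higher in VAT and 7 lower. Ltb4r1, the receptor for the lipid attractant leukotriene B4, was at 964.5, 1019 and 831 CPM in VAT and at 3.1, 0.716 and 0.919 CPM in spleen (9.30 ± 0.55, adjusted p = 8.12e-13). Cxcr5, which guides cells to B cell follicles, was lower, with 2.75, 7.7 and 5.81 CPM in VAT against 127, 145 and 130.4 CPM in spleen (-4.65 ± 0.56, adjusted p = 2.99e-07). Of 28 cytokine and chemokine genes, 22 passed the filter and 13 of those were higher, 3 lower and 6 not called. The 6 that were not tested were Il13, Il4, Il17a, Il17f, Ccl3 and Xcl1. Lta, lymphotoxin alpha, was lower (3.33 ± 1.22 against 37.7 ± 7.26 CPM, adjusted p = 4.1e-09). Il21, a helper cytokine, had no count in VAT and 29 counts in spleen, at least 9.18-fold higher there (adjusted p = 0.0163), a call lost without VAT library A.

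Interferon response genes were lower in VAT: 0 of 24 rose and 19 fell, with a median log2 difference of -1.69. Iigp1, an interferon-induced GTPase, was at 3.25, 8.62 and 3.49 CPM in VAT and at 361, 429.7 and 367 CPM in spleen (-6.26 ± 0.52, adjusted p = 4.15e-10). Rtp4 was lower by a similar amount (-5.92 ± 0.46, adjusted p = 5.08e-13). Mx1 and Isg20 did not pass, at 0.68 ± 0.76 and -0.03 ± 0.20. At the other times 15 to 18 of the 24 were lower in VAT and 1 was higher.

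Glucocorticoid-responsive genes were mostly higher, 9 of 14 with 2 lower. Dusp1, a MAP kinase phosphatase, was at 6765, 7017 and 6780 CPM in VAT and at 57.1, 69 and 50.1 CPM in spleen (6.87 ± 0.21, adjusted p = 2.99e-23). Pik3ip1, a brake on PI3 kinase, was lower (-1.60 ± 0.19, adjusted p = 9.56e-09). Tle4, a corepressor, was lower too (-0.75 ± 0.28, adjusted p = 0.0358), but its call was lost without the filter, with the length slope as a covariate and without VAT library A or B, or spleen library A or B. Of 19 heat shock chaperones, 4 were higher and 1 lower, a share near the 30.3% of all tested genes. Bag3, a cochaperone, was the highest of them, at 28.7, 37.6 and 43.3 CPM in VAT and at 5.89, 10.5 and 10.8 CPM in spleen (1.99 ± 0.32, adjusted p = 6.13e-06). Hspe1, the mitochondrial chaperonin partner, was lower (-0.95 ± 0.22). In the unfolded protein response, 10 of 18 were higher and 3 lower. Atf6, a sensor of the endoplasmic reticulum, was at 127 ± 22.3 CPM in VAT against 22.5 ± 5.15 CPM in spleen (2.50 ± 0.27, adjusted p = 2.98e-09). Edem1, which serves disposal of misfolded glycoproteins, was lower (-1.11 ± 0.20, adjusted p = 4.41e-05).

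Genes of lipid handling tended to be higher in VAT. Of 18 genes of lipid uptake and storage, 8 were higher and 2 lower, and of 17 tested genes of fatty acid oxidation, 12 were higher and 0 lower. Hilpda, a droplet protein that inhibits lipolysis, was at 648, 533 and 416 CPM in VAT and at 14, 16.5 and 21.6 CPM in spleen (4.93 ± 0.28, adjusted p = 5.49e-15). Plin2, which coats lipid droplets, was higher as well (4.60 ± 0.32, adjusted p = 3.81e-12). Cpt1a, the gate of fatty acid import into mitochondria, was at 156, 198 and 175 CPM in VAT and at 65.1, 54 and 49.8 CPM in spleen (1.65 ± 0.35, adjusted p = 0.000578). Lipa, the lysosomal acid lipase, was lower (-1.48 ± 0.15, adjusted p = 5.09e-10).

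Sterol synthesis and uptake genes had 12 higher and 2 lower of 26. Insig1, which holds back sterol synthesis, was at 165, 137 and 197 CPM in VAT and at 41.9, 40.3 and 52.8 CPM in spleen (1.88 ± 0.22, adjusted p = 8.69e-09). The 2 lower genes were the cholesterol exporters Abcg1 (-0.83 ± 0.16, adjusted p = 7.35e-05) and Abca1 (-1.49 ± 0.45, adjusted p = 0.0109), the second call being lost without VAT library C. Fatty acid synthesis had 4 higher and 1 lower of 12 tested genes, the lower one being the desaturase Scd2 (-1.87 ± 0.53, adjusted p = 0.00863). Glycolysis and hypoxia genes had 11 higher and 3 lower of 23, led by Egln3, an oxygen sensor, at 137, 145 and 154 CPM in VAT and at 8.68, 11.9 and 1.61 CPM in spleen (4.31 ± 0.40, adjusted p = 4.21e-10). Of 25 nuclear genes of oxidative phosphorylation 19 were not called, with 5 higher and 1 lower, Ndufa4 (-1.23 ± 0.27, adjusted p = 0.000578). That share called was near the 30.3% of all tested genes, and that of fatty acid synthesis was not far above it.

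Of 20 proliferation genes, 2 were higher, 3 lower and 15 not called, a share called not far from the 30.3% of all tested genes. Mki67, the marker Ki-67, was among the higher ones at 37.1 ± 6.56 CPM in VAT against 7.57 ± 3.45 CPM in spleen (2.30 ± 0.37, adjusted p = 4.08e-06). Of 16 cell cycle inhibitors and p53 targets, 8 were higher and 1 lower. Cdkn1a, which encodes p21, was at 522, 422 and 349 CPM in VAT and at 2.48, 0.955 and 0.689 CPM in spleen (8.35 ± 0.50, adjusted p = 3.14e-13). T cell receptor signalling genes had 1 higher and 8 lower of 20, with Prkcq, the kinase PKC-theta, at 169, 205 and 202 CPM in VAT and at 649, 692 and 777 CPM in spleen (-1.88 ± 0.17, adjusted p = 5.14e-11). The adaptor Lcp2 was the higher one (0.69 ± 0.10, adjusted p = 1.05e-06). Of 25 cytosolic ribosomal protein genes, 17 were lower and 0 higher, with a median of -0.51. Rps19 was lowest, at 156, 123 and 83.7 CPM in VAT and at 219, 201 and 233 CPM in spleen (-0.85 ± 0.20, adjusted p = 0.000968).

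**Figure D2:**
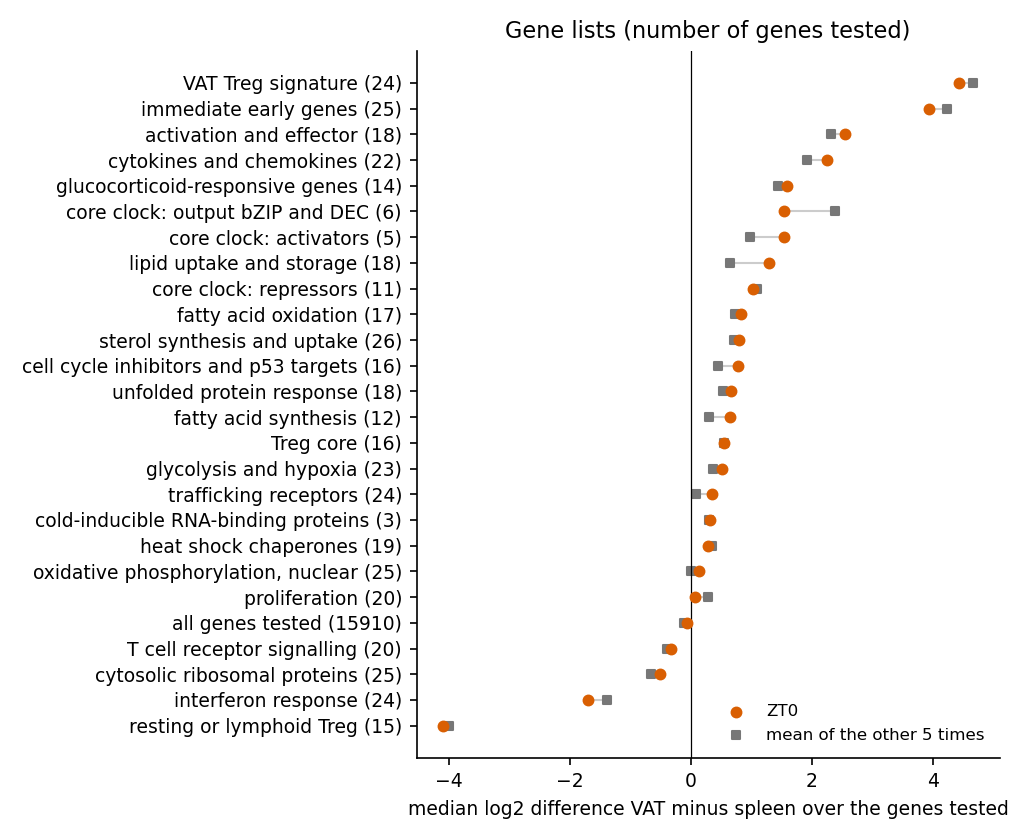
Median log2 difference VAT minus spleen over the tested genes of each list, at ZT0 (orange circles) and for the mean of the other 5 times (grey squares), with the number of genes tested in parentheses. The medians at ZT0 and at the other times lie close together for most lists. The widest distance is in the 6 clock output genes, at 1.55 and 2.39. Of these 6, however, 4 had the higher value at ZT0, and only Tef and Bhlhe41 the lower one. For Bhlhe41, which had few counts, ZT0 minus the other times was -5.67.

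Core clock genes differed between the tissues at ZT0 in every arm of the loop. Of 5 activators, Arntl, Npas2 and Rora were higher in VAT. Arntl (chromosome 7, 113207465 to 113314126) was at 154, 160.4 and 166 CPM in VAT and at 60.8, 50.4 and 53.5 CPM in spleen (1.55 ± 0.20, adjusted p = 9.62e-08). Rora, a nuclear receptor that drives Arntl, was at 1301, 1309 and 1433 CPM in VAT and at 58.9, 60.2 and 79 CPM in spleen (4.35 ± 0.18, adjusted p = 1.83e-20). Both separated without overlap. Npas2, a partner of BMAL1 in place of CLOCK, had 53 counts in VAT and 1 in spleen, a ratio of 58.3 with an interval of 10 to 2350 (adjusted p = 0.00165). Clock did not pass, at 54.5, 42.5 and 54.4 CPM in VAT and at 52.1, 45.1 and 59.3 CPM in spleen (-0.05 ± 0.22, adjusted p = 0.898).

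Among 11 repressors, Per1, Per3, Cry1, Nr1d1 and Csnk1e were higher in VAT, Per2 and Cry2 were lower, and Nr1d2, Ciart and Csnk1d were among those that did not pass. Per1 (chromosome 11, 69095217 to 69109960) was at 158, 167 and 155 CPM in VAT and at 23.6, 18.4 and 21.6 CPM in spleen (2.92 ± 0.17, adjusted p = 9.95e-17). Its relative Per2 (chromosome 1, 91415982 to 91459324) ran the other way, with 0.999, 0.308 and 0.291 CPM in VAT and 6.82, 5.25 and 9.87 CPM in spleen (-3.65 ± 0.66, adjusted p = 3.6e-05). The cryptochromes also split, with Cry1 higher (1.38 ± 0.26, adjusted p = 5.92e-05) and Cry2 lower (-1.28 ± 0.34, adjusted p = 0.00304). Nr1d1, which encodes the repressor REV-ERBα, was at 6, 18.2 and 12.2 CPM in VAT and at 0.93, 4.3 and 2.99 CPM in spleen (2.08 ± 0.45, adjusted p = 0.00041). Per3 passed narrowly (1.04 ± 0.39, adjusted p = 0.0376) and its call was lost with library totals, with the ZT0 libraries fitted alone and without VAT library C, spleen library A or spleen library C. Csnk1e, a kinase of the PER proteins, lost its call (1.49 ± 0.47, adjusted p = 0.0131) without VAT library B or spleen library B.

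Of 6 output genes, Hlf, Nfil3, Bhlhe40 and Dbp were higher in VAT, while Tef and Bhlhe41 did not pass. Hlf, a PAR bZIP factor, was at 27, 28.3 and 28.5 CPM in VAT and at 0, 0.239 and 2.76 CPM in spleen (4.65 ± 0.68, adjusted p = 1.72e-06). Nfil3, which competes with these factors for their sites, was at 182, 195 and 121 CPM in VAT and at 10.2, 5.73 and 7.81 CPM in spleen (4.40 ± 0.54, adjusted p = 3.32e-07). Bhlhe40, which encodes the repressor DEC1, was at 78 ± 14.6 CPM in VAT against 22 ± 8.18 CPM in spleen (1.83 ± 0.40, adjusted p = 0.000702). The libraries of Dbp overlapped, with 19.7, 14.2 and 8.72 CPM in VAT and 4.03, 4.77 and 8.73 CPM in spleen (1.27 ± 0.41, adjusted p = 0.0169), and its call was lost with library totals, with the length slope as a covariate and without VAT library A, spleen library A or spleen library B.

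**Figure D3:**
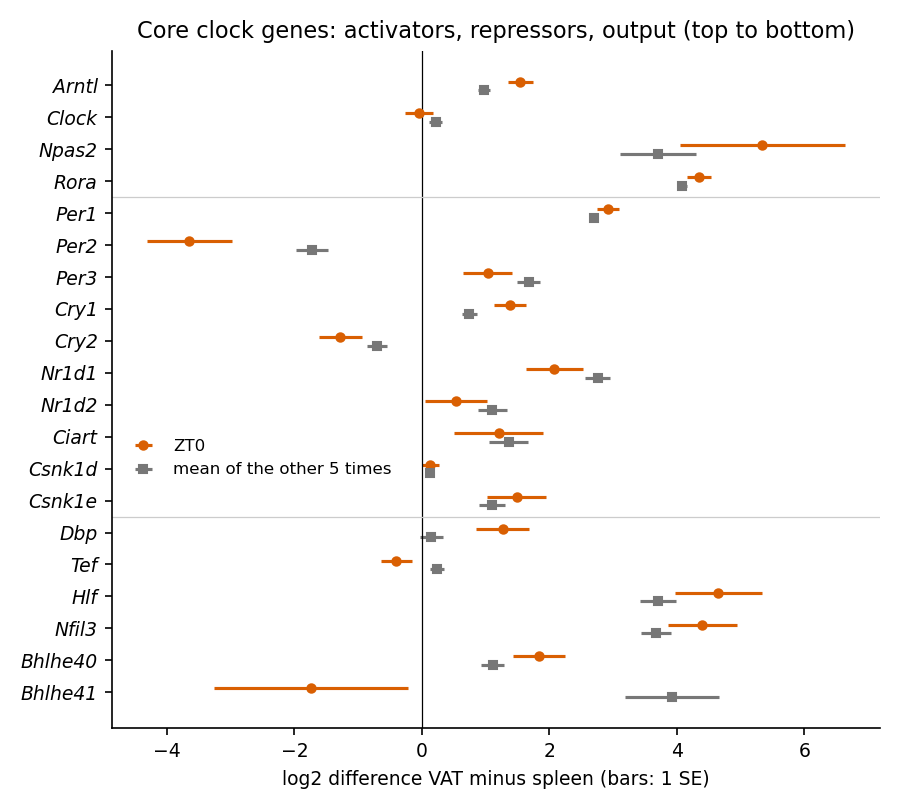
Log2 difference VAT minus spleen of 20 core clock genes at ZT0 (orange circles) and for the mean of the other 5 times (grey squares), with bars of 1 SE; grey lines part activators, repressors and output genes. Per1, Rora, Hlf and Nfil3 lie far to the right at ZT0 and Per2 and Cry2 to the left.

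Against the other times, no clock gene passed the test of the difference itself. Arntl had the larger difference at ZT0 (1.55 against 0.98 ± 0.09 for the mean of the other times), a difference of differences of 0.57 ± 0.22 (95% interval 0.12 to 1.01, unadjusted p = 0.0138, adjusted p = 0.74). Its VAT mean of 160.2 CPM at ZT0 lay above the means of 78 to 108 CPM at the other times, while spleen was at 54.9 CPM at ZT0 and at 44.4 to 60.1 CPM otherwise. Per2 was at -3.65 at ZT0 against -1.72 ± 0.26 for the mean of the other times (unadjusted p = 0.0113, adjusted p = 0.723). Its difference at ZT4 was close to that at ZT0, -3.60 ± 0.64, and those at ZT8 to ZT20 lay between -1.43 and -0.998. Bhlhe41, encoding DEC2, had fitted values of opposite sign, -1.74 ± 1.53 at ZT0 and 3.93 ± 0.74 otherwise (unadjusted p = 0.00199, adjusted p = 0.607). It rested on 3 counts in VAT and 11 in spleen at ZT0. Dbp, Cry1 and Tef also had 95% intervals that left out 0, without adjustment for the number of genes. Their differences of differences were 1.115 (0.21 to 2.021), 0.635 (0.069 to 1.201) and -0.637 (-1.181 to -0.093). Tef was at -0.40 ± 0.24 at ZT0 and between -0.45 (ZT20) and 1.07 (ZT16) at the other times. Per1 was nearly the same, 2.92 at ZT0 and 2.69 ± 0.08 otherwise, a difference with a 95% interval of -0.13 to 0.59.

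Over all genes, the tissue difference at ZT0 was compared with the mean of the differences at the other 5 times in the same model. The test called 0 of 15910 genes (0%), with 968 genes at an unadjusted p under 0.05 (6.08%). DESeq2 called 3 genes, Egr1, Rgs1 and Chpf, and edgeR without the filter on low counts called 27. The same contrast put at each other hour called 0 genes for ZT4 and ZT8, 1 for ZT12 (Dusp1), 1 for ZT16 (Slc30a9) and 2 for ZT20 (Metrnl and Sh3bgrl). The mean of the other times called 4278 genes higher in VAT (26.9%) and 5039 lower (31.7%), which rests on 29 libraries against 6. For the 8880 genes of at least 10 CPM on average, the 95% interval of the difference of differences reached a median of 0.533 log2 units to either side. Differences smaller than that were mostly not detectable. The interval is not adjusted for the number of genes tested, so larger differences could be missed as well. Egr1, with a difference of differences of -1.16, was not called by edgeR.

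Direction was shared almost throughout. Of the 4824 genes called at ZT0, 4797 (99.4%) had the same sign in the mean of the other times and 4338 (89.9%) at each of the 5 times. The size was close too: genes of at least 10 CPM called higher at the other times had a median difference of 0.678 there and 0.747 at ZT0, and those called lower had -0.576 and -0.612. The 2 sets of differences correlated over the 8880 genes with a Pearson r of 0.963, a description across genes that are not independent. A total of 27 genes called at ZT0 had the opposite sign in the mean of the other times. Only 4 were called in both, C1qtnf6, Gm19782, Impdh2 and Trav1, named because they are so few. Apart from Impdh2 they were low, at 3.22, 2.12 and 0.97 CPM in VAT at ZT0 for C1qtnf6, Gm19782 and Trav1, and none of the 4 passed the test of the difference of differences.

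**Figure D4:**
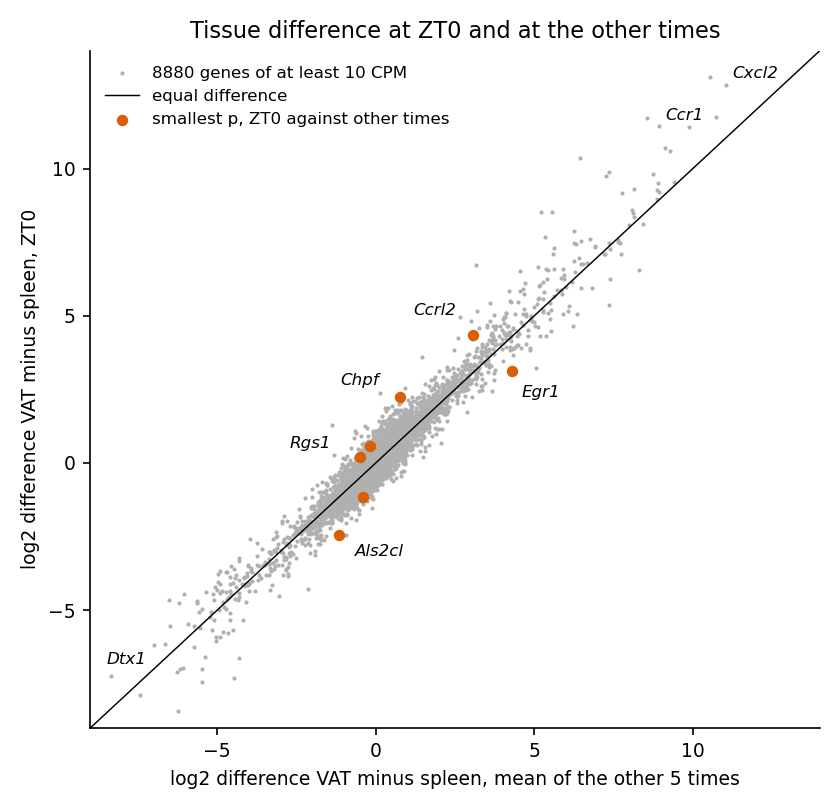
Log2 difference VAT minus spleen at ZT0 (vertical) against that of the mean of the other 5 times (horizontal) for the 8880 genes of at least 10 CPM, with a line of equal difference. Most genes lie along the line; orange points are those of the 10 genes with the smallest p that reach 10 CPM, none of which passed edgeR's adjusted test.

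The 10 genes with the smallest p against the other times are given as values that did not pass. Egr1, an immediate early zinc finger factor (chromosome 18, 34859823 to 34864984), had the smaller difference at ZT0. It stood at 395, 461 and 391 CPM in the VAT libraries and at 49.6, 48.5 and 43.6 CPM in the spleen libraries. The VAT mean was 416 ± 39.7 CPM at ZT0 and 755 to 1003 CPM at the other times, whereas spleen ran from 33.2 to 55.1 CPM over all 6 times. The tissue difference was 3.14 ± 0.21 at ZT0 and 4.30 ± 0.10 otherwise, a difference of -1.16 ± 0.22 (95% interval -1.61 to -0.71, adjusted p = 0.144 by edgeR). DESeq2 gave an adjusted p of 0.00807, and edgeR called it without the ZT8 libraries (adjusted p = 0.016).

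Rgs1, a brake on chemokine receptor signalling (chromosome 1, 144242296 to 144249242), was at 534, 489.7 and 458 CPM in VAT and at 469, 414 and 397 CPM in spleen, so the tissues overlapped at ZT0. Its difference was 0.21 ± 0.14 there, between -0.64 and -0.40 at the other times, and the difference of differences was 0.72 ± 0.15 (interval 0.42 to 1.02, adjusted p = 0.149; DESeq2 0.0231). Impdh2, which makes guanine nucleotides (chromosome 9, 108560286 to 108565584), had opposite signs too. It was at 106, 76.3 and 86 CPM in VAT and at 66.7, 55.9 and 56.7 CPM in spleen, a difference of 0.59 ± 0.17 at ZT0 against -0.36 to 0.004 at the other times (0.77 ± 0.19, adjusted p = 0.474).

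Chpf, a chondroitin polymerising factor (chromosome 1, 75474569 to 75479307), had a larger difference at ZT0. It was at 94.9, 88.3 and 42.1 CPM in VAT and at 14.6, 17.4 and 15.6 CPM in spleen. The difference of 2.24 ± 0.28 compares with 0.29 to 1.34 at the other times (1.46 ± 0.31, interval 0.84 to 2.08, adjusted p = 0.149; DESeq2 0.0231). Its lowest VAT value lies in library C, and without that library edgeR called it (1.75, adjusted p = 0.0148). Ccrl2, a receptor that presents the attractant chemerin, was at 211, 167 and 134 CPM in VAT and at 6.82, 13.6 and 4.82 CPM in spleen (4.33 ± 0.29 against 2.86 to 3.39, adjusted p = 0.474). A further pair of genes was lower in VAT by more at ZT0. Cstf1, a subunit of the cleavage stimulation factor of pre-mRNA ends, had a difference of -1.18 ± 0.18 against -0.68 to -0.13. Als2cl, a Rab5 regulator, had -2.45 ± 0.31 against -1.59 to -0.76.

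The last 3 genes were close to the detection limit. Hspa1a, an inducible HSP70 with a near-identical copy in Hspa1b, was at 2, 1.85 and 3.49 CPM in VAT and at 1.24, 0.239 and 2.53 CPM in spleen (0.84 ± 0.83 against 4.78 ± 0.48 otherwise). The difference at ZT16 was close to that at ZT0, 1.24 ± 0.75, and those at the remaining times were 4.38 to 8.10. Its VAT means at the other times were 4.76 to 12.3 CPM. Zfp273, a zinc finger gene, was at 0.5, 0.616 and 2.33 CPM in VAT and at 7.44, 12.9 and 8.27 CPM in spleen (-3.04 ± 0.65 against -0.95 to 0.61 at the other times). C1qb, a complement gene of macrophages, was at 5, 2.16 and 2.33 CPM in VAT and at 19.9, 8.83 and 8.27 CPM in spleen (-1.92 ± 0.63 against -6.07 to -2.77 at the other times). All 3 had an adjusted p of 0.474. The macrophage marker sum, of which C1qb is itself a member, was 14.2 to 23.2 CPM in VAT at ZT0 and 6.94 to 20.5 CPM at the other times. Whether macrophages had a part in the C1qb value was not tested.

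**Figure D5:**
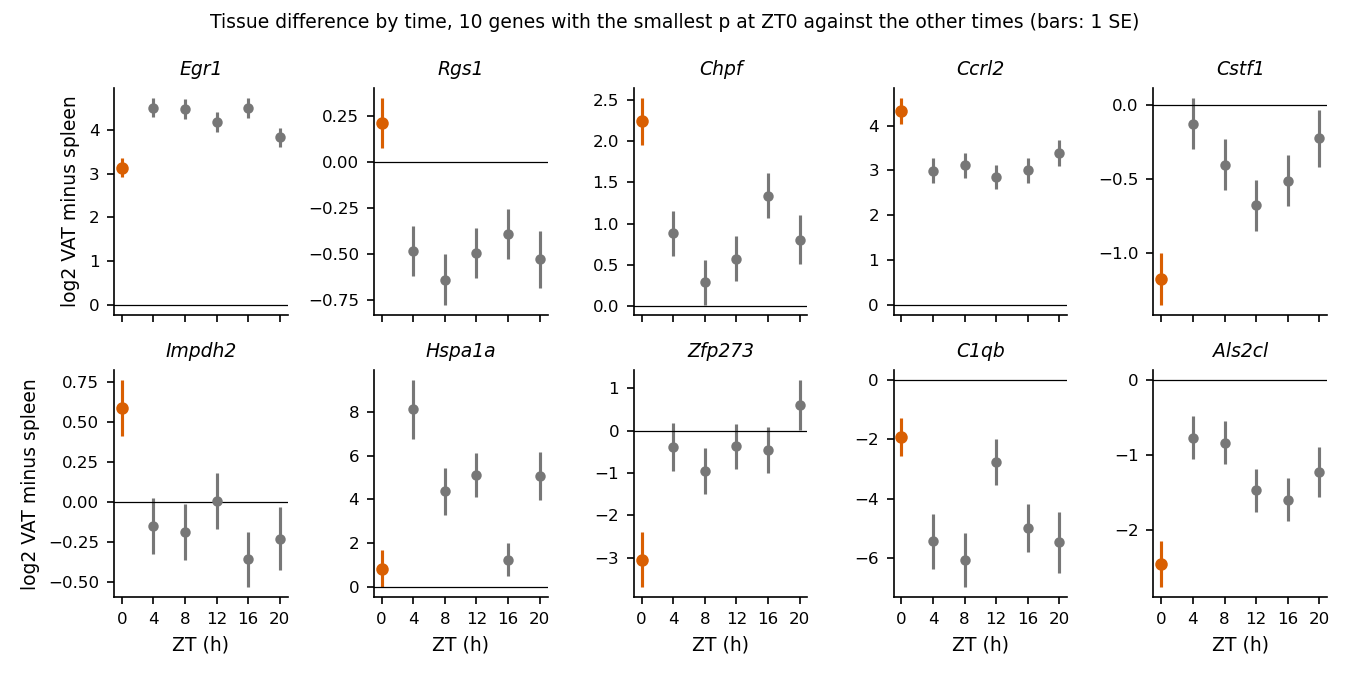
Log2 difference VAT minus spleen (vertical) by ZT in hours (horizontal) for the 10 genes with the smallest p, with bars of 1 SE and ZT0 in orange. For Egr1, Cstf1, Hspa1a, Zfp273 and Als2cl the ZT0 value is the lowest of the 6, for Rgs1, Chpf, Ccrl2, Impdh2 and C1qb it is the highest, and vertical scales differ between panels.

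By list, no member passed against the other times, and the smallest adjusted p was 0.144 in the immediate early genes. The medians of the difference of differences lay between -0.36 for the 11 clock repressors and 0.72 for the 6 clock outputs, against 0.04 for all genes. The 25 ribosomal protein genes all had a positive value, with a median of 0.16 (range 0.03 to 0.90), and so did 8555 of all 15910 genes. In spleen and VAT alike these genes share their libraries, so the 25 values are not independent.

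Within each tissue, ZT0 was set against its own other times. In VAT 3 genes passed (0.0189%), Egr1, C1qb and Ctrb1. Egr1 fell by 1.03 ± 0.16 (log2, adjusted p = 0.00458), a call lost without VAT library A (adjusted p = 0.127). C1qb was higher (3.16 ± 0.61, adjusted p = 0.0393), a call lost without the same library (adjusted p = 0.314). Ctrb1, a digestive protease precursor of the pancreas, was higher through 1 library, with 12.7, 0.923 and 0.291 CPM in VAT libraries A, B and C and at most 0.167 CPM on average at the other times (adjusted p = 0.0393). The calls of C1qb and Ctrb1 were also lost when the libraries of ZT4 or of ZT8 were left out. Neither gene was called higher without ZT20, and Ctrb1 was not called without ZT12. With DESeq2, and without the ZT16 libraries, 2 of the 3 calls in VAT were kept. Arntl missed the threshold in VAT at an adjusted p of 0.052.

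In spleen 4 genes passed (0.0251%), Cirbp, Tsc22d3, Chordc1 and the predicted gene Gm8995. Cirbp, a cold-inducible RNA-binding protein (chromosome 10, 80165985 to 80172786), was at 35.7, 42.5 and 56.5 CPM in spleen at ZT0, below the means of 63.9 to 134 CPM at the other times (-1.28 ± 0.18, adjusted p = 0.000244). In VAT it was at 96.9, 66.8 and 87.5 CPM at ZT0 and averaged 86.7 to 160.5 CPM at the other times, which did not pass (adjusted p = 0.11). The tissue difference of Cirbp was 0.90 ± 0.21 at ZT0 (adjusted p = 0.00107) and 0.31 ± 0.09 otherwise, and the test of the difference between them did not pass (0.59 ± 0.23, adjusted p = 0.746). Tsc22d3, the glucocorticoid-induced leucine zipper GILZ, was at 189, 209.6 and 275 CPM in spleen at ZT0 and at 306 to 683 CPM on average at the other times (-0.95 ± 0.16, adjusted p = 0.00455). Chordc1, an HSP90 cochaperone, was higher at ZT0 (0.68 ± 0.12, adjusted p = 0.00703), as was Gm8995 (0.61 ± 0.10, adjusted p = 0.00397). The calls of Tsc22d3, Chordc1 and Gm8995 were lost without spleen library A or B, those of the first 2 also without the ZT12 libraries, that of Tsc22d3 with the length slope as a covariate and that of Chordc1 without ZT20.

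Against single times, Dusp1 was the only gene whose tissue difference at ZT0 passed, and only against ZT12, lights-off (1 gene, 0.00629%). P-values were adjusted over the genes within each of the 5 single-time contrasts, not over these contrasts together. Dusp1 (chromosome 17, 26505590 to 26562128) averaged 6854 ± 141 CPM in VAT at ZT0 and 6391 ± 1200 CPM at ZT12. In spleen it averaged 58.7 ± 9.57 CPM at ZT0 and 140.2 ± 25.3 CPM at ZT12. The tissue difference was 6.87 ± 0.21 at ZT0 and 5.51 ± 0.20 at ZT12, a difference of 1.36 (adjusted p = 0.0296). At ZT4, ZT8, ZT16 and ZT20 it was 6.62, 6.56, 6.00 and 6.62, so the value at ZT12 was the lowest of all times. The call was lost in 9 of the 12 fits that left out 1 library of ZT0 or ZT12, with adjusted p-values from 0.0143 to 0.285 over all 12, and with the length slope of each library as a covariate (1.14, adjusted p = 0.341). It was also lost without the libraries of ZT4 or of ZT8. Against the mean of all 5 other times Dusp1 did not pass (0.60 ± 0.19, interval 0.23 to 0.98, adjusted p = 0.607).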

How the data were processed

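The authors deposited unnormalized read counts for 55011 gene symbols. The submitters' processing notes name STAR 2.7.3a, featureCounts and the build mm10. Per the labels' protocols, RNA of 1000 sorted cells was primed with oligo-dT, amplified in limited PCR, made into Nextera XT libraries and sequenced as paired reads of 25 nt. For the gene annotation, the strand setting and multi-mapped reads, the setting is not given in the sources used here, so antisense, overlapping and near-identical genes are uncertain. No molecular identifiers were used, and intervals from counts cover counting error only.

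Analysis used edgeR 4.0.16 under R 4.3.3. The filter filterByExpr with 12 groups of tissue and time left 15910 genes. TMM scaling and robust quasi-likelihood fits over all 35 libraries (2069319 to 6260185 counts, 23 residual degrees of freedom) gave the contrasts: VAT minus spleen at ZT0, the same minus the mean of the other 5 times, and ZT0 against the other times within each tissue. No pair of ZT0 replicates agreed within sampling noise. The fitting script was tested on simulated data. DESeq2 1.42.0 was an alternative. CPM is after TMM scaling. Where a tissue had no count, folds were set against a floor of 3 counts over its 3 libraries. Where it had 1 to 3, the ratio has an exact binomial interval at the 95% level. Gene positions are GENCODE M21 (GRCm38), counted from 1.

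Named genes were the 10 highest and 10 lowest at ZT0 among called, non-overlapping genes of at least 10 CPM in the higher tissue, the 10 smallest p against the other times, all core clock genes, genes called in any time comparison, and the 2 highest and 2 lowest of each other list. A few of these and 1 cell type marker are not reported here, some are covered by counts only, and other names were chosen after their values were seen. The members and the 25 lists were chosen with earlier results of these data known.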

Additional observations from a re-analysis of the deposited data

Results flagged for a closer look

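The tissue difference of Dusp1 was larger at ZT0 than at ZT12 by 1.36 on the log2 scale (edgeR quasi-likelihood test of the difference between the 2 times, adjusted p = 0.0296), the only such call of ZT0 against a single other time. Spleen libraries held 57.1, 69 and 50.1 CPM at ZT0 and averaged 140.2 ± 25.3 CPM at ZT12, while VAT was at 6854 ± 141 and 6391 ± 1200 CPM. Leaving out 1 library of either time gave values from 1.21 to 1.49 and kept the call in 3 of 12 fits. The tissue difference was 6.87 at ZT0, 6.62 at ZT4, 6.56 at ZT8, 5.51 at ZT12, 6.00 at ZT16 and 6.62 at ZT20. It was thus lowest at ZT12, where edgeR's test against the mean of the remaining times also called it (adjusted p = 0.0432). The same test at ZT0 did not. Each adjusted p covers the genes of its own contrast and is not adjusted for the several contrasts run.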

How the results depend on the processing

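The count of 4824 genes at ZT0 stayed within 1.5 times under every alternative run, from 3956 (without VAT library A) to 5930 (library totals). With the replicate block it was 4688 by letter and 4169 by pair of time and letter. Replicate letters shared by the tissues were not taken as pairs: same-letter correlations of deviations were -0.022 to 0.02 at ZT0 and -0.381 to 0.24 at the other times, above 0.1 only for letters B and C at ZT4. The block by letter left C1qb and Ctrb1 without a call within VAT, and the block by pair left Dusp1 without one (adjusted p = 0.219) against ZT12. Of 93 named genes called at ZT0, 79 kept direction and call throughout. With library totals Rbm3 reversed to -0.029. Against the other times the count of 0 became 3 with DESeq2, 27 without a filter, 1 without the ZT8 libraries, and 0 to 1 with 1 library left out. Within VAT the 3 calls became 38 with DESeq2, 9 with RLE factors, 10 with library totals, 110 without a filter, 25 with the length slope as a covariate, 1 with the replicate block by letter, 23 without the ZT16 libraries and 1 to 9 with 1 library left out. Within spleen the 4 became 83 with DESeq2, 8 with library totals, 127 without a filter, 7 with the replicate block by letter, 7 without ZT4, 2 without ZT12, 66 without ZT16 and 1 to 4 with 1 library left out. Against ZT12 the 1 call, under alternatives chosen after seeing the data, became 11 with DESeq2, 28 without a filter, 0 with the length slope, 0 without ZT4 or ZT8, and 0 to 5 with 1 library left out. The cause was not tested. Counts of calls within a tissue and between times depend on tool, filter and libraries. Genes of a few CPM carry wide error at this depth.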
